A study of Arabidopsis thaliana with 6 samples.

Results

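Aux/IAA genes encode short-lived repressors of the auxin response, and 10 of the 29 genes of this family in Arabidopsis thaliana were described here: IAA1, IAA2, IAA3, IAA5, IAA7, IAA13, IAA14, IAA17, IAA19 and IAA29. They were chosen by locus identifier from the 38189 genes of the count tables, and each of the 10 was found. RNA of hb34 mutant plants (3 libraries) was compared with RNA of Columbia wild-type plants (WT, 3 libraries). The labels give the genotypes as hb34 mutant and WT, both in the Columbia background and both mock-treated, and do not describe the allele. HB34 is a homeobox transcription factor that the study relates to the balance of immunity and growth. All plants were 10 d old, grown on MS medium at 22 °C in long days (16 h light).

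The labels call the tissue leaves, while the extraction protocol speaks of seedlings. Of 12 root marker genes, 6 had no read in any library (WOX5, PLT1, PLT2, EXPA7, EXPA18 and RHD6). The 10 root markers other than SCR and SHR, which leaf vasculature also expresses, had a summed CPM (each count relative to the TMM-scaled library total) of 0.322 to 1.90 in hb34 and of 0 to 0.358 in WT. In hb34 most of this was PYK10, a root and hypocotyl glucosidase, with 5, 33 and 23 counts, against 1, 0 and 0 in WT. PYK10 fell below the filter on low counts and passed in edgeR without that filter (adjusted p = 0.0472), and its part in the results was not tested. The 6 leaf markers summed to 67100 to 78600 CPM in hb34 and to 66500 to 78500 CPM in WT. The libraries held 17562497 to 19670468 counts. HB34 itself had 19, 43 and 23 counts in the hb34 libraries, against 1571, 1547 and 1821 in the WT libraries. In a principal component analysis the first axis held 55.5% of the variance. Replicate 2 of hb34 stood apart on it at 82.1, with the remaining hb34 libraries at 8.53 and 17.6 and those of WT from -41.2 to -25.8. The labels do not state that replicates were separate cultures, so p-values measure the spread between these libraries, which may be technical. In whole tissue, fewer cells of a type and less RNA per cell cannot be told apart.

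At low auxin an Aux/IAA protein binds auxin response factors (ARFs) and recruits a TOPLESS co-repressor, which keeps auxin target genes off. Auxin joins the Aux/IAA protein to the TIR1/AFB receptors, which leads to its ubiquitination and degradation and releases the ARF. Many Aux/IAA genes are themselves induced by auxin, so the family forms a negative feedback. Dominant mutants named several members: shy2 for IAA3, axr2 for IAA7, slr for IAA14, axr3 for IAA17 and msg2 for IAA19.

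The part of the protein that the receptor grips, the degron, is a feature shared by the members, and its coding sequence shows how alike they are in this part. Capitals mark the 12 bases that encode the glycine-tryptophan-proline-proline core, within 39 bases of coding sequence (RefSeq annotation and genome, build TAIR10.1).
IAA1 (chr4:8361436-8361474, plus strand): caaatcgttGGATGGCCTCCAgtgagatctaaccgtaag
IAA2 (chr3:8181378-8181416, minus strand): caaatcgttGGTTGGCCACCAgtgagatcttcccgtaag
IAA3 (chr1:1129010-1129048, minus strand): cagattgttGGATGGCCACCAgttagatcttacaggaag
IAA17 (chr1:1136938-1136976, plus strand): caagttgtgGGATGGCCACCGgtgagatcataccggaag
IAA7 (chr3:8195568-8195606, plus strand): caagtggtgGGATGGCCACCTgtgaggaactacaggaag
IAA14 (chr4:8349469-8349507, minus strand): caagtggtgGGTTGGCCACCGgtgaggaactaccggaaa
IAA5 (chr1:5366266-5366304, minus strand): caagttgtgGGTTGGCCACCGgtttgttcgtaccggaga
IAA19 (chr3:5264307-5264345, plus strand): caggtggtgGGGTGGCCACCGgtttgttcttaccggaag
IAA13 (chr2:14115224-14115262, minus strand): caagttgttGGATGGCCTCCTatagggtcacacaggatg
IAA29 (chr4:15583942-15583980, plus strand): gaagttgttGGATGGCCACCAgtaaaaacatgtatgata
All 10 members held the core, spelled in 8 different ways at the base level. The windows of IAA1 and IAA2, like those of IAA7 and IAA14, had 35 of 39 bases alike, the most of any pair of members, and IAA5 and IAA19 shared 33. Across the family, 23 of 29 genes encode the core. The other 6 (IAA20, IAA30, IAA31, IAA32, IAA33 and IAA34) reached at most 7 counts in any library, and none of them had enough counts to be tested. Of the members, 6 lie as neighbouring pairs with no protein-coding gene between them: IAA3 and IAA17 on chromosome 1 (6388 bases apart), IAA2 and IAA7 on chromosome 3 (12510 bases apart) and IAA14 and IAA1 on chromosome 4 (10732 bases apart). In each pair the genes point away from each other.

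Transcript levels of the members differed widely, and most lay lower in hb34 without passing the test. Of the 9 members with enough counts, 8 had a negative log2 fold change (hb34 minus WT throughout) and IAA1 a positive one. Over all tested genes 49.1% were negative. With edgeR's quasi-likelihood test 0 of the 9 passed an adjusted p under 0.05, where 6.27% of the 17905 tested genes did (3.77% higher and 2.5% lower in hb34). Without multiple-test adjustment, at p under 0.05, 1 of the 9 was higher and 4 were lower in hb34, against 16.5% and 13.3% of all tested genes (29.7% in either direction). DESeq2 called 1 higher and 2 lower, against 9.25% and 5.8% of tested genes. With limma-voom 0 of the 9 passed, against 3.36% higher and 2.33% lower of tested genes. In 1 member all hb34 libraries lay above all WT libraries and in 3 below, against 17.8% and 17.5% of all tested genes (35.3% together). The median log2 fold change of the 9 was -0.42, against 0.01 over all tested genes. With the correction for exon length described below it was -0.26, against 0.01, and 6 of the 9 members were negative.

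Per kilobase of exon, IAA7 had the highest level of the 10 in both genotypes. In RPKM (CPM per kilobase of summed exon length), IAA7 had 67.9 ± 10.5 in hb34 and 97.7 ± 18.5 in WT (SD, n = 3 each, as for all RPKM here). IAA2 followed with 52.5 ± 2.11 in hb34 and 57.6 ± 4.17 in WT, and IAA17 with 41.0 ± 1.504 in hb34 and 55.0 ± 4.84 in WT. IAA3 had 30.9 ± 15.4 in hb34 and 55.2 ± 9.36 in WT. In hb34 IAA3 and IAA17, and in WT IAA2, IAA3 and IAA17, lay within their spread of each other. Next came IAA1, with 16.0 ± 6.74 in hb34 and 8.11 ± 1.054 in WT, and IAA13, with 8.995 ± 0.775 in hb34 and 12.2 ± 0.607 in WT. Their order differed between the genotypes, with IAA1 above IAA13 in each of the hb34 libraries and below it in each of the WT libraries. IAA19 lay at 3.32 ± 0.842 in hb34 and 5.18 ± 1.26 in WT. IAA14, at 1.47 ± 0.536 in hb34 and 1.52 ± 0.354 in WT, could not be separated from IAA5, at 1.33 ± 0.618 in hb34 and 1.603 ± 0.874 in WT. IAA29 was lowest, at 0.271 ± 0.166 in hb34 and 0.0843 ± 0.108 in WT.

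**Figure D1:**
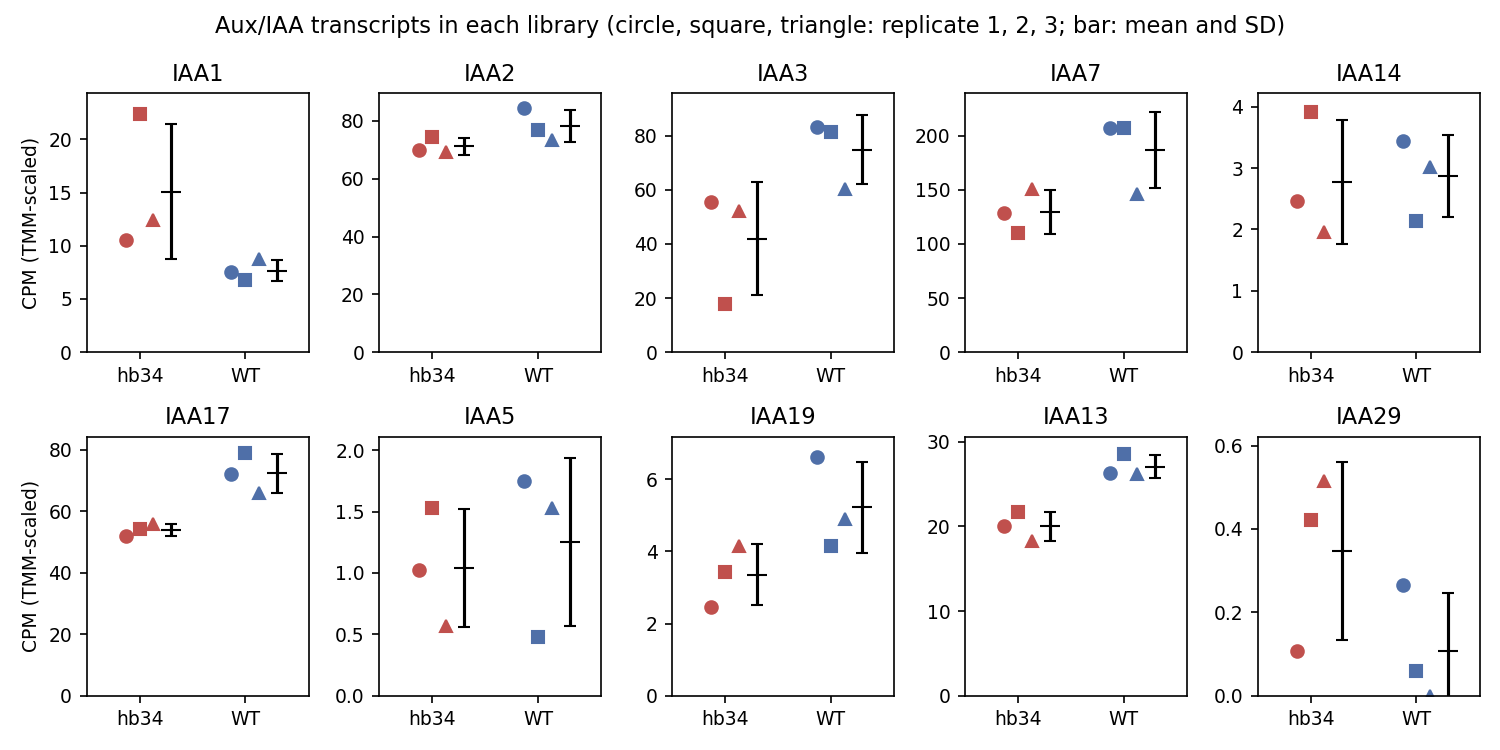
CPM of the 10 Aux/IAA genes (y axis, TMM-scaled, each panel from 0) in the 3 hb34 and the 3 WT libraries, with the mean and SD beside the points. IAA1 is higher and IAA3, IAA13 and IAA17 are lower in every hb34 library than in any WT library, while the other genes overlap.

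IAA1 (gene-AT4G14560, chromosome 4, 8360996 to 8362033, plus strand), an auxin-induced member, was the only one of the 9 tested members with a positive log2 fold change. It had 10.5, 22.4 and 12.4 CPM in hb34 replicates 1, 2 and 3, against 7.53, 6.76 and 8.74 CPM in WT. Every hb34 library lay above every WT library, with hb34 replicate 2 well above the other hb34 libraries. The log2 fold change was 0.97 (SE 0.297, edgeR adjusted p = 0.0858), and DESeq2 called the gene (adjusted p = 0.0213). Without hb34 replicate 2 the log2 fold change was 0.58 (edgeR adjusted p = 0.0851). IAA2 (gene-AT3G23030), whose degron bases are closest to those of IAA1, had 70.0, 74.5 and 69.2 CPM in hb34 and 84.5, 77.0 and 73.3 CPM in WT. Its groups overlapped, and its log2 fold change was -0.14 (SE 0.107, edgeR adjusted p = 0.424).

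IAA3 (gene-AT1G04240, chromosome 1, 1128149 to 1129689, minus strand), whose product limits root meristem size downstream of cytokinin, had the most negative value of the 9. It had 55.5, 17.8 and 52.2 CPM in hb34 and 83.1, 81.1 and 60.2 CPM in WT. No hb34 library reached the WT range, and hb34 replicate 2 lay far below the others. The log2 fold change was -0.84 (SE 0.381, edgeR adjusted p = 0.187), and -0.47 without hb34 replicate 2 (edgeR adjusted p = 0.101). Its neighbour IAA17 (gene-AT1G04250, chromosome 1, 1136078 to 1138663, plus strand), whose stabilised form blocks root hair growth and gravitropism, varied less. IAA17 had 51.9, 54.3 and 55.8 CPM in hb34 and 72.2, 78.9 and 66.1 CPM in WT. The hb34 libraries lay close together below all WT libraries (log2 fold change -0.42, SE 0.113, edgeR adjusted p = 0.0648). DESeq2 called IAA17 (adjusted p = 0.0309).

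IAA7 (gene-AT3G23050), known from the axr2 mutant with its short hypocotyl and agravitropic growth, had 128.4, 110.0 and 150.2 CPM in hb34 and 206.8, 207.0 and 145.7 CPM in WT. WT replicate 3 lay inside the hb34 range (log2 fold change -0.53, SE 0.177, edgeR adjusted p = 0.104). Without WT replicate 3 the log2 fold change was -0.66 (edgeR adjusted p = 0.0615). IAA14 (gene-AT4G14550), which blocks lateral root initiation in its stabilised form, had 2.47, 3.91 and 1.95 CPM in hb34 and 3.45, 2.13 and 3.01 CPM in WT. Its groups overlapped (log2 fold change -0.05, SE 0.321, edgeR adjusted p = 0.921). It rested on 36 to 74 counts a library.

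IAA13 (gene-AT2G33310, chromosome 2, 14113025 to 14116089, minus strand), a relative of IAA12 that acts on ARF5 in embryonic root formation, had 20.02, 21.7 and 18.2 CPM in hb34 and 26.4, 28.6 and 26.2 CPM in WT. The hb34 libraries all lay below the WT libraries (log2 fold change -0.44, SE 0.126, edgeR adjusted p = 0.0774), and DESeq2 gave an adjusted p of 0.0497. IAA19 (gene-AT3G15540), which restrains the ARF7 response in hypocotyl bending, had 2.47, 3.43 and 4.16 CPM in hb34 and 6.63, 4.15 and 4.91 CPM in WT. The highest hb34 library was level with the lowest WT library (log2 fold change -0.64, SE 0.269, edgeR adjusted p = 0.161). IAA5 (gene-AT1G15580), an auxin-induced gene, had 19, 29 and 11 counts in hb34 and 33, 8 and 30 counts in WT. The groups overlapped fully (log2 fold change -0.30, SE 0.529, edgeR adjusted p = 0.726).

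IAA29 (gene-AT4G32280), a gene induced in shade through phytochrome-interacting factors, did not pass the filter on low counts. It had 2, 8 and 10 counts in hb34 and 5, 1 and 0 counts in WT. The counts of hb34 replicates 2 and 3 were the highest, while hb34 replicate 1 lay within the WT range. A count of 0 allows up to 3 counts, which is 0.153 to 0.178 CPM depending on the library (counting error only). In edgeR without the filter its log2 fold change was 1.63 (SE 1.02, adjusted p = 0.337).

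**Figure D2:**
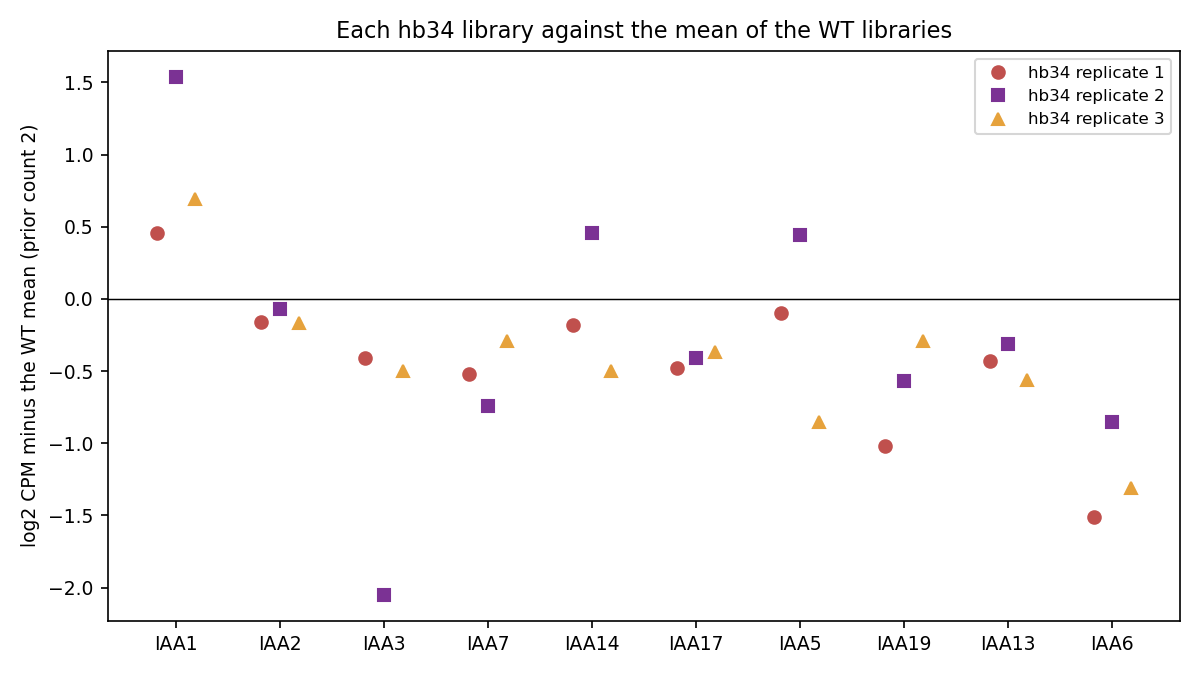
Log2 CPM (prior count 2) of each hb34 library minus the mean of the WT libraries (y axis) for the 9 tested members and IAA6. IAA13 (-0.56 to -0.31) and IAA17 (-0.48 to -0.37) lie below 0 within a narrow range, whereas IAA1 (1.54) and IAA3 (-2.05) are most extreme in hb34 replicate 2.

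Upstream sequences of IAA1, IAA19 and IAA6 are shown because IAA1 had the highest and IAA6 the lowest log2 fold change of the tested family, and IAA19 held the most matches of the 10 members to the motifs below. Each is the 250 bases before the gene's annotated start (RefSeq, TAIR10.1). Capitals mark matches on either strand to TGTCTC and TGTCGG, which auxin response factors bind, to the G-box CACGTG, bound by phytochrome-interacting factors, and to TAATTA, which holds the core bound by many homeodomains.
IAA1 (chr4:8360746-8360995, plus strand): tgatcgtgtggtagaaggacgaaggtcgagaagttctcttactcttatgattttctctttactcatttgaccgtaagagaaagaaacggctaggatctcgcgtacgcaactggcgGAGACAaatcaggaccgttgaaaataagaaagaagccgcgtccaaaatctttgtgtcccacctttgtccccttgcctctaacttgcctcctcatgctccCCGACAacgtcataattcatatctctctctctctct
IAA19 (chr3:5263751-5264000, plus strand): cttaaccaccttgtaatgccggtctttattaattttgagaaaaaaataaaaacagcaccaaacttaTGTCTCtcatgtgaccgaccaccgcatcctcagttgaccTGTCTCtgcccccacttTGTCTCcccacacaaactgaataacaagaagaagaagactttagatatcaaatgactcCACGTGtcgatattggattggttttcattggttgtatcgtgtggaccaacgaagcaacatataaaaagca
IAA6 (chr1:19673653-19673902, minus strand): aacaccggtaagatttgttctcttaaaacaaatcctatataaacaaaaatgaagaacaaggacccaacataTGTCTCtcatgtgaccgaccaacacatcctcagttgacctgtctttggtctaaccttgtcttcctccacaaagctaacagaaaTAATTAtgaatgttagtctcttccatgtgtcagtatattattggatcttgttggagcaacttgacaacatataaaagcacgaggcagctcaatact
IAA19 held TGTCTC at 184, 145 and 128 bases before the start and CACGTG at 70 bases. IAA1 held TGTCTC at 135 and TGTCGG at 36 bases, each on the opposite strand, where they read GAGACA and CCGACA. IAA6 held TGTCTC at 179 and TAATTA at 96 bases. TGTCTC stood in the windows of 3 of the 10 members (IAA1, IAA5 and IAA19), against 10.9% of 27443 protein-coding genes. TGTCGG stood in 3 (IAA1, IAA5 and IAA13), against 4.16%, CACGTG in 2 (IAA7 and IAA19), against 6.49%, and TAATTA in 2 (IAA3 and IAA7), against 28.4%. No match to any of these motifs stood in the windows of IAA2, IAA14, IAA17 and IAA29. Matches describe the sequence only.

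Among the other genes of the family 1 fell in edgeR, where 2.5% of all tested genes did. Of the other 19 Aux/IAA genes, 12 had enough counts, 11 of them with a negative log2 fold change. IAA6 (AT1G52830), a near relative of IAA19 and IAA5, was the gene that passed. It had 1.77, 2.85 and 2.06 CPM in hb34 and 6.10, 4.27 and 5.52 CPM in WT. All hb34 libraries lay below all WT libraries (log2 fold change -1.25, SE 0.253, edgeR adjusted p = 0.0355). The call was kept without hb34 replicate 2 (-1.47), and it was lost without each of the other 5 libraries in turn (-1.37 to -1.11, edgeR adjusted p 0.0652 to 0.158). Calls over all genes moved too when a library was left out: 0.00549% of tested genes were higher and 0.011% lower in hb34 without WT replicate 1, and 0.00548% and 0.0164% without WT replicate 2. Without WT replicate 3 they were 2.76% and 1.47%, and without hb34 replicate 1 they were 3.58% and 1.29%. Without hb34 replicate 2 they were 4.7% and 2.77%, and without hb34 replicate 3 they were 1.51% and 0.632%. Without adjustment, at p under 0.05, 0 of the 12 were higher and 4 lower in hb34 (IAA6, IAA27, IAA8 and IAA28). Over all tested genes the shares were 16.5% and 13.3%. IAA8 had 184.0, 176.7 and 178.5 CPM in hb34 and 223.3, 237.8 and 214.1 CPM in WT (edgeR adjusted p = 0.0793). Of all 21 tested family genes, 19 had a negative log2 fold change, against 49.1% of all tested genes, and in 9 all hb34 libraries lay below all WT libraries, against 17.5%. The exceptions in sign were IAA1 and IAA10 (log2 fold change 0.32, edgeR adjusted p = 0.324).

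Log2 fold changes rose with exon length over all tested genes, and the Aux/IAA genes are short to middling. Tested genes with 750 to 1000 bases of exon had a median of -0.34, those with 1000 to 1500 bases -0.17, those with 2000 to 2500 bases 0.10, and those of 4000 bases or more 0.65. The trend had the same direction in hb34 replicates 1, 2 and 3 (medians of -0.35, -0.44 and -0.22 at 750 to 1000 bases, and of 0.66, 0.86 and 0.42 from 4000 bases). Against the mean of all 6 libraries in place of the WT mean, the medians from 4000 bases were 0.33, 0.52 and 0.11 in hb34 replicates 1, 2 and 3 and -0.47, -0.43 and -0.06 in WT replicates 1, 2 and 3. Replicate 3 thus lay nearest to 0 in both genotypes. Spearman's rho between exon length and log2 fold change was 0.46 over 17905 genes, which share the same 6 libraries. The part of exon length in the Aux/IAA values was examined only by the comparison with genes of like length and the correction that follow. The members spanned 781 bases (IAA5) to 2222 bases (IAA13). Set against genes outside the family within 10% of their length, 7 of the 9 members and 11 of the other 12 family genes lay below the median, and 5 and 6 of them below the lower quartile. IAA1 stood at 0.97 where genes of its length had a median of -0.30, and IAA13 at -0.44 where theirs was 0.10. IAA2 (-0.14, against -0.13) and IAA5 (-0.30, against -0.36) lay at about the level of genes of their length.

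With a correction for exon length, an alternative chosen after seeing the data, 0 of the 9 members passed in edgeR (1 higher and 3 lower at p under 0.05 without adjustment, against 11.8% and 10.8% of tested genes). Under this correction 1.83% of tested genes were higher and 1.3% lower at the adjusted threshold. IAA13 then had -0.53 (SE 0.118, edgeR adjusted p = 0.0632), IAA7 -0.53 (0.145), IAA17 -0.26 (0.17) and IAA1 1.27 (0.0951), with edgeR adjusted p in parentheses. IAA19 had -0.37, and IAA6, which then did not pass, -0.94 (edgeR adjusted p = 0.119). Of the 21 family genes, 6 of 9 members and 11 of 12 others kept a negative sign.

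**Figure D3:**
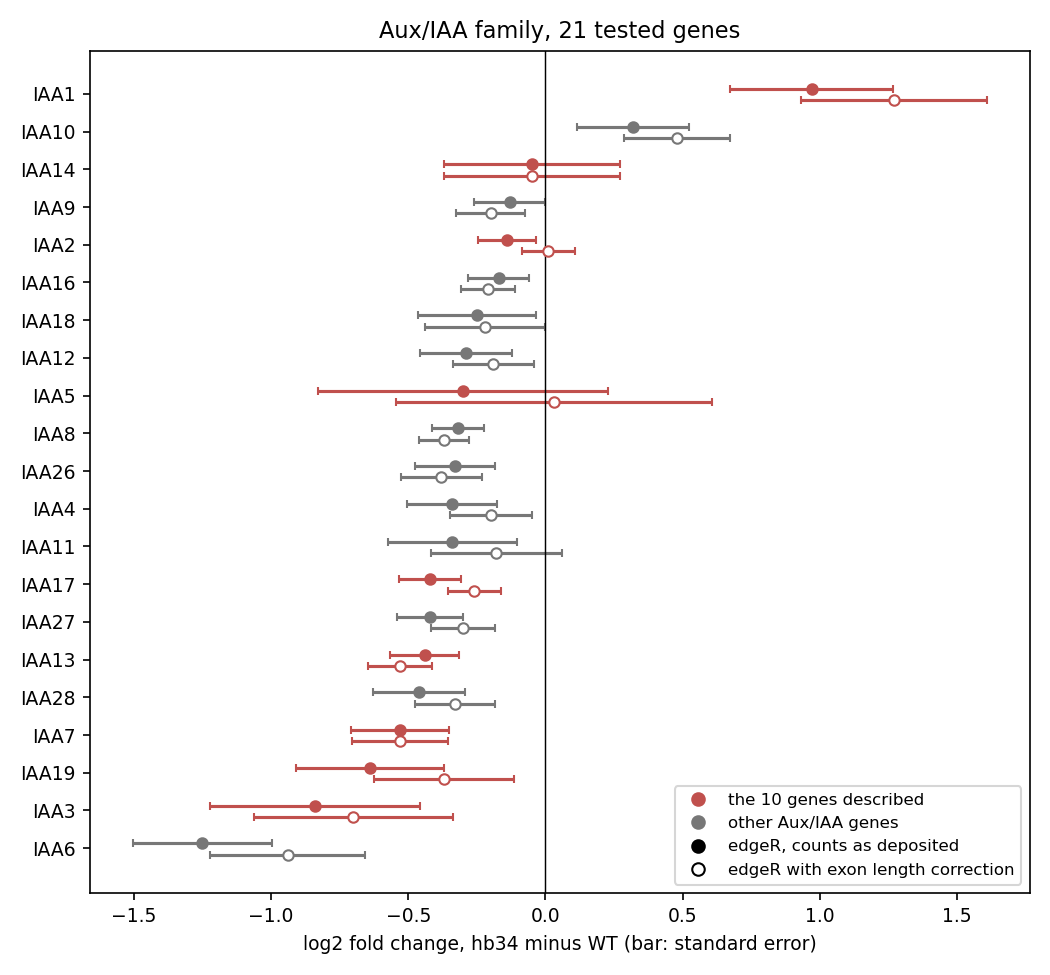
Log2 fold change, hb34 minus WT, with its standard error (x axis) for the 21 tested Aux/IAA genes (rows), from the deposited counts (filled) and with the exon length correction (open). Of the 21 genes 19 lie left of 0 without the correction, with IAA1 at 0.97 at one end and IAA6 at -1.25 at the other.

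Among the partners of the Aux/IAA proteins, 1 gene rose in edgeR, the response factor gene ARF19. Over all tested genes edgeR called 3.77% higher and 2.5% lower, and 16.5% and 13.3% at p under 0.05 without adjustment. The shares were 9.25% and 5.8% with DESeq2 and 3.36% and 2.33% with limma-voom. With the length correction they were 1.83% and 1.3% (11.8% and 10.8% without adjustment). Counts in the lists from here on are to be read beside these shares. All 6 TIR1/AFB receptor genes were tested and 0 passed with edgeR, DESeq2 or limma-voom (0 without adjustment in each), with 3 values positive, 3 negative and a median of -0.01. AFB1 had the smallest p of these (log2 fold change -0.34, edgeR adjusted p = 0.242). With the length correction 5 of the 6 were negative, 2 of them lower at p under 0.05 without adjustment. Of 15 ARF genes 10 had positive values. In edgeR 1 rose and 0 fell (4 higher and 0 lower at p under 0.05 without adjustment, median 0.28, median exon length 2998 bases), while DESeq2 called 3 higher and limma-voom 0. With the length correction the median was 0.08 and 0 passed (1 higher and 5 lower without adjustment). The gene that rose was ARF19, an activator that works with ARF7 in lateral root formation, with 4.40, 7.02 and 4.47 CPM in hb34 and 1.54, 1.42 and 2.76 CPM in WT (log2 fold change 1.46, SE 0.328, edgeR adjusted p = 0.0455). The hb34 libraries lay above all WT libraries, but ARF19 did not pass with limma-voom (adjusted p = 0.0511) or with the length correction (0.93, edgeR adjusted p = 0.0991). Its call was kept without WT replicate 3 (1.85) and without hb34 replicate 2 (1.20) and lost without each other library and without the first 2 Mb of chromosome 2 (edgeR adjusted p = 0.0527). All 5 TOPLESS genes had positive values (median 0.63, median exon length 3959 bases), and 0 passed with edgeR or limma-voom (4 higher in edgeR at an unadjusted p under 0.05), while DESeq2 called 1 higher. After correction for length the median of the TOPLESS genes was 0.12 and 0 passed (0 without adjustment). TPL, the founding co-repressor, had 213.9, 238.8 and 176.8 CPM in hb34 and 105.1, 141.0 and 160.3 CPM in WT, without overlap (log2 fold change 0.63, SE 0.181, edgeR adjusted p = 0.0758), and a log2 fold change of 0.09 with the length correction.

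Among genes of auxin synthesis, transport, inactivation and release from conjugates, edgeR called 1, the transport gene PIN4, against 6.27% of all tested genes. Of 13 synthesis genes 5 had enough counts and 0 passed with edgeR, DESeq2 or limma-voom (0 without adjustment). TAA1, the aminotransferase of the main route, had the smallest p (log2 fold change -0.59, edgeR adjusted p = 0.188). Of 15 transport genes 13 were tested, of which 10 had negative values (median -0.17). In edgeR 1 passed as higher and 0 as lower (2 higher and 2 lower without adjustment), while DESeq2 called 2 higher and limma-voom 1 higher. With the length correction 11 were negative and 0 passed (1 higher and 5 lower without adjustment). The gene that rose in edgeR was PIN4, an efflux carrier, with 66.2, 55.6 and 49.8 CPM in hb34 and 30.1, 36.2 and 33.1 CPM in WT (log2 fold change 0.79, SE 0.146, edgeR adjusted p = 0.0296). PIN4 lies in the first 2 Mb of chromosome 2, so it was not tested in the fit without that segment. That fit called 383 genes higher and 327 lower, against 675 and 447 with the segment. What sets the segment apart was not tested. Corrected for length, PIN4 had 0.45 (edgeR adjusted p = 0.128). The PIN4 call was kept without hb34 replicate 2 and without hb34 replicate 3 and lost without each other library. Of 12 genes of inactivation or release (ILR1, IAR3 and ILL2 release auxin from conjugates) 7 were tested. Of these 0 passed with edgeR, DESeq2 or limma-voom (1 higher at an unadjusted p under 0.05). That gene was GH3.6, which conjugates auxin to amino acids (0.56, edgeR adjusted p = 0.145).

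Among SAUR genes SAUR66 fell, and among other auxin targets HAT2 rose, where edgeR called 2.5% of all tested genes lower and 3.77% higher. Many SAUR genes are small, growth-promoting and auxin-induced, but the response of the listed ones to auxin was not tested here. Of 21 SAUR genes 16 were tested, and 13 of these had negative values (median -0.56, median exon length 825.5 bases). In edgeR 1 fell and 0 rose (0 higher and 5 lower without adjustment), while DESeq2 called 2 lower and limma-voom 1 lower. Without hb34 replicate 1 edgeR called 4 lower. SAUR66 had 6.33, 4.64 and 4.52 CPM in hb34 and 10.8, 9.96 and 9.96 CPM in WT (log2 fold change -0.99, SE 0.183, edgeR adjusted p = 0.0296). Its call was kept without hb34 replicate 1 and without hb34 replicate 2 and lost without each other library and with the length correction (-0.70, edgeR adjusted p = 0.0945). SAUR genes stand in arrays of like copies, so reads of SAUR66, SAUR64 and SAUR67 (AT1G29510, named SAUR68 in RefSeq) may be split between them. SAUR14, SAUR50, SAUR23, SAUR64 and SAUR67 had log2 fold changes of -0.59, -1.19, -0.56, -0.74 and -0.65 and did not pass in edgeR with all libraries. SAUR50 passed with DESeq2 (adjusted p = 0.0447) and, at -0.77, in edgeR without hb34 replicate 2. SAUR14 (-0.84) and SAUR64 (-1.19) passed in edgeR without hb34 replicate 1. SAUR50 was lowest in hb34 replicate 2 (3.80 CPM, against 20.8 CPM or more in WT). With the length correction the median of the SAUR genes was -0.22 and 0 passed (0 higher and 1 lower at p under 0.05 without adjustment).

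Of 10 other auxin targets 5 were tested, of which 4 had negative values (median -0.74, and -0.46 with the length correction). In edgeR 1 rose and 0 fell (1 higher and 2 lower without adjustment), while DESeq2 called 1 higher and limma-voom 0. PRE5 (-1.81, edgeR adjusted p = 0.113) and PBP1 (-1.21, edgeR adjusted p = 0.126) were the lower genes before adjustment. PRE5 rested on 3, 1 and 9 counts in hb34 and 20, 14 and 11 counts in WT, and the groups of PBP1 overlapped. The gene that rose was HAT2, a homeodomain-leucine zipper gene induced by auxin. It had 10.8, 13.5 and 10.2 CPM in hb34 and 7.26, 6.88 and 6.85 CPM in WT (log2 fold change 0.72, SE 0.167, edgeR adjusted p = 0.0484). All hb34 libraries lay above all WT libraries, and with the length correction HAT2 passed as well (0.84, edgeR adjusted p = 0.0458), while limma-voom gave an adjusted p of 0.0534. HAT2 did not pass when any 1 library was left out (0.59 to 0.80, edgeR adjusted p 0.0607 to 0.172). It did not pass either without the first 2 Mb of chromosome 2. Of 10 light and growth regulators 8 had positive values (median 0.28) and 0 passed with edgeR or limma-voom (2 higher and 1 lower in edgeR at an unadjusted p under 0.05), while DESeq2 called 2 higher and 1 lower. HY5, a light-signalling factor, had 84.6, 47.7 and 77.7 CPM in hb34 and 110.5, 121.7 and 102.3 CPM in WT (log2 fold change -0.67, SE 0.21, edgeR adjusted p = 0.0898).

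**Figure D4:**
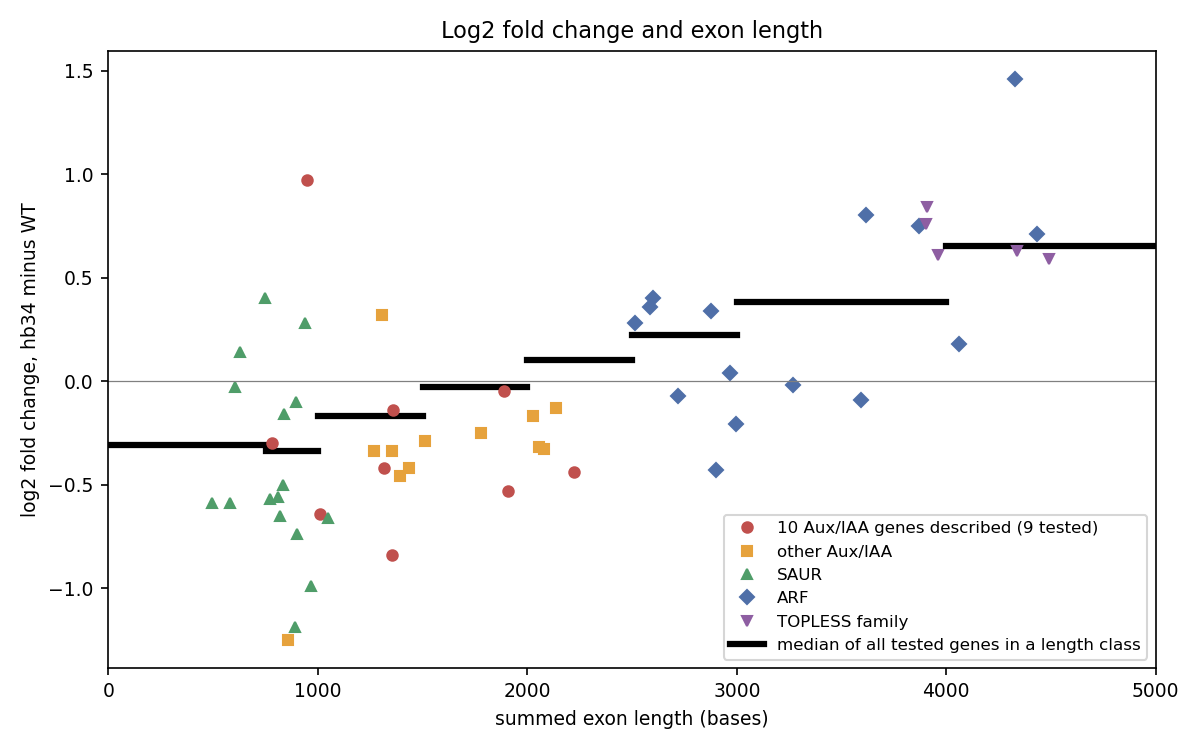
Log2 fold change, hb34 minus WT (y axis), against summed exon length in bases (x axis) for tested Aux/IAA, SAUR, ARF and TOPLESS genes, with the median of all tested genes in each length class as black bars (the last, from 4000 bases, is cut at the right edge of the plot). The medians are -0.31 and -0.34 in the shortest classes and climb to 0.65 in the longest, and most Aux/IAA genes lie below the bar of their class.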

How the data were processed

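RNA of 10-day-old hb34 and WT plants was sequenced in 3 libraries each. The authors deposited raw counts per gene over its exons, 1 table per library, per the file headers. HISAT2 2.1.0, DESeq2 1.30.1 and TAIR10 appear in the submitters' processing notes with no role attached. No source used here gives the counting program, its strand setting or its handling of multiply matching reads, so reads of overlapping, antisense or near-identical genes may be shared. RPKM was computed with the summed exon length in the deposited tables.

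Genes were filtered (filterByExpr, minimum count 10, minimum total 15), scaled by TMM and fitted in edgeR 4.0.16 (R 4.3.3; quasi-likelihood F test, genotype as only term, two-sided, Benjamini-Hochberg adjustment over 17905 genes, threshold 0.05). Alternatives used DESeq2 1.42.0, limma 3.58.1 (voom), other scalings, filters and dispersions, a replicate block, removal of the first 2 Mb of chromosome 2, and each library left out. The length correction took a lowess (span 0.3) of each library's log2 CPM deviations on log2 exon length as offsets. The fit was tested on simulated data, which held neither an outlying library nor an exon length trend.

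The exons in the files lay inside the same RefSeq TAIR10.1 gene for 29 of 29 Aux/IAA genes. Symbols come from the lists or RefSeq synonyms. Members and lists were chosen with earlier results of these data known. Named by rule were the 10 members, HB34, each other listed gene that passed, otherwise the gene with the smallest p of a list, and at most 6 SAUR genes. IAA8, IAA27, IAA28, IAA10, PRE5, PBP1, PIF1, PIF4 and PYK10 were added after their values were seen.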

Additional observations from a re-analysis of the deposited data

How the results depend on the processing

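No member passed in edgeR under any alternative; DESeq2 called 1 member higher and 2 lower. Of 162 values of members under the alternatives, 7 turned sign. With the length correction IAA2 had 0.01 and IAA5 0.03, and with single libraries left out IAA5 ran from -0.69 to 0.01 and IAA14 from -0.38 to 0.15. The cause was not tested.

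Among the other 12 Aux/IAA genes, where 1 was lower, DESeq2 called 2 lower and the length correction 0 (0 to 1 with a library left out). Among 82 other auxin pathway genes, where 3 were higher and 1 lower, DESeq2 called 9 higher and 3 lower, limma-voom 1 higher, and the length correction 1 higher and 0 lower. Without the first 2 Mb of chromosome 2, where PIN4 lies, 0 were higher, as ARF19 and HAT2, which lie outside it, did not pass either. With a library left out, 0 to 2 were higher and 0 to 4 lower.

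Over all genes, where 675 were higher and 447 lower, DESeq2 called 1657 and 1038 and the length correction 327 and 233. The fit without the first 2 Mb of chromosome 2 called 383 higher and 327 lower of 17658 tested genes, with calls outside the segment moving too. Upper quartile scaling gave 536 higher and 615 lower and moved the median of all genes to -0.08. With a library left out, 1 to 853 were higher and 2 to 503 lower; the lowest counts were those without WT replicate 1 (1 and 2) and without WT replicate 2 (1 and 3).

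With a replicate block, 2 genes were higher and 3 lower, with 0 other Aux/IAA genes lower and 0 other pathway genes higher or lower. Same-numbered libraries correlated at -0.10, -0.11 and -0.26 in their deviations from the group means. With 3 libraries a group and hb34 replicate 2 standing apart, these values cannot decide whether the numbers pair libraries. The members with the fewest counts were IAA29 (0 to 10 a library), IAA5 (8 to 33) and IAA14 (36 to 74).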
